A study of Mus musculus with 18 samples.

Results

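The 9 genes described here encode the core of the translational arm of the integrated stress response: the 4 kinases that phosphorylate the translation factor eIF2 (Eif2ak1, Eif2ak2, Eif2ak3 and Eif2ak4), the phosphorylated subunit itself (Eif2s1), the catalytic subunit of its exchange factor (Eif2b5), the 2 regulatory subunits that direct a phosphatase to it (Ppp1r15a and Ppp1r15b), and a repressor of cap-dependent initiation (Eif4ebp1). They were chosen by name as rows of a gene count table, 9 of 37315 genes, and all 9 passed the filter on low counts that left 16213 genes for testing. The question was whether the transcripts of the sensors and regulators differ after asparaginase in livers where the transcripts of their targets do. Polyadenylated RNA was sequenced from the livers of C57BL/6J mice in 18 libraries, 6 groups of 3. Mice of 2, 8 or 16 weeks received daily intraperitoneal injections of either L-asparaginase (Elspar), a bacterial enzyme used against leukaemia that removes asparagine from the blood, at 3 IU per g of body weight, or the same volume of PBS. There were 7 injections at 2 and 16 weeks and 8 at 8 weeks, so the 8-week groups also differ from the others in the number of injections, and livers were taken 7.5 h after the last one. No group carried an engineered allele, and each library is taken as 1 mouse.

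As background, phosphorylated eIF2 blocks its own exchange factor, eIF2B, so that general initiation slows while a few transcripts, Atf4 among them, are translated more. Each kinase answers to its own signal: GCN2 (Eif2ak4) to scarce amino acids, PERK (Eif2ak3) to unfolded proteins in the endoplasmic reticulum (ER), PKR (Eif2ak2) to double-stranded RNA, and HRI (Eif2ak1) to heme shortage and, through a relay, to mitochondrial stress. The response ends when GADD34 (Ppp1r15a), which the response induces, or CReP (Ppp1r15b), which is present throughout, brings protein phosphatase 1 to eIF2. The liver makes large amounts of secreted protein, and asparaginase is known to engage GCN2 there. The kinases and eIF2 are regulated largely by modification of the protein, which RNA counts do not measure.

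Counts per library totalled 24690871 to 46949361, and no member had fewer than 191 counts in any library. CPM here means counts normalised to library sizes that TMM, a factor aligning the bulk of genes, has adjusted, and differences are log2 fold changes from 1 edgeR quasi-likelihood fit to all 18 libraries with a sex term within each age. Rises, falls and calls below all mean an adjusted p (Benjamini-Hochberg, 16213 genes) under 0.05. Hepatocyte markers were present in every library, 11 of 11 matched genes above 1 CPM in all groups. Their sums were 64030 to 97107.9 CPM after asparaginase and 97349.5 to 105041 CPM after PBS at 2 weeks, and overlapped at 8 and 16 weeks. Erythroid sums were apart at 8 weeks only, 253 to 306 against 511 to 554 CPM. Cell division sums were 39.3 to 66.7 against 94.5 to 112 CPM at 2 weeks. At 16 weeks they were 7.35 to 21.4 against 2.24 to 7.28 CPM. The part of these sums in the results was not tested. In 3 libraries of 2 weeks Xist and a sum of 4 Y-linked genes were both above 10 CPM, against 0 of the others. These mixed libraries were PBS libraries 1 and 2 and asparaginase library 3, and their labelled sex is uncertain. Leaving them out keeps PBS library 3 alone in its group of 2 weeks. Member differences whose call was lost without them are given below, as are counts of the target, interferon and ER lists for the average asparaginase effect. Values of single genes outside the 9 are given from fits to all 18 libraries. Pancreatic acinar transcripts summed to 523 to 1397 CPM in the 2-week asparaginase libraries against 28.0 to 134 CPM in PBS, and to 2693 CPM in asparaginase library 3 of 16 weeks; squamous epithelial transcripts summed to 161 and 79.6 CPM in asparaginase libraries 1 and 2 of 8 weeks against 2.25 to 18.9 CPM elsewhere. Skeletal muscle transcripts summed to 2269.6 CPM in asparaginase library 1 of 8 weeks, and at 16 weeks to 2.97 to 20.3 CPM after asparaginase against 44.6 to 255 CPM after PBS, with no overlap. Their part in the results below was not tested beyond the fits without those libraries. Major urinary protein genes took 0.0460% to 0.579% of counts at 2 weeks and 5.39% to 47.9% at 8 and 16 weeks. With library totals as the only scaling, the median log2 difference of all genes moved from -0.01 to -0.72 for 8 over 2 weeks and from -0.01 to -0.80 for 16 over 2 weeks in PBS mice, and to 0.37 and 0.25 for asparaginase at 8 and 16 weeks, so every change below is relative to the median gene. Under that scaling the share of called genes that were higher went from 46.6% to 3.30% and from 47.7% to 2.90% for those ages, and from 75.7% to 92.6%, 52.5% to 99.2% and 81.6% to 99.4% for asparaginase at 2, 8 and 16 weeks.

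No member was called after asparaginase at a single age, though Eif2ak2 at 2 and 16 weeks and Eif4ebp1 at 16 weeks had treatment groups that did not overlap. At 2, 8 and 16 weeks 0 of 9 members passed the threshold, beside 0.432%, 0.364% and 0.234% of all genes tested; at an unadjusted p under 0.05 there were 2, 3 and 3 members and 2043, 2989 and 1842 genes in all. DESeq2 called 0, 0 and 1 members and limma-voom 0, 0 and 0. The median log2 difference of the members was 0.06, -0.05 and -0.01 at the 3 ages, against -0.01, 0.01 and 0 over all genes. In the same livers 6, 5 and 9 of 44 targets (a list written with earlier results of these data known) of the stress response rose and 0 fell, with medians of 0.57, 0.30 and 0.65. When the effect was averaged over the 3 ages, 2 of 9 members passed (5.41% of all genes did): Eif2ak2 fell and Eif4ebp1 rose. The other 7, among them GCN2, PERK and HRI, did not pass.

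**Figure D1:**
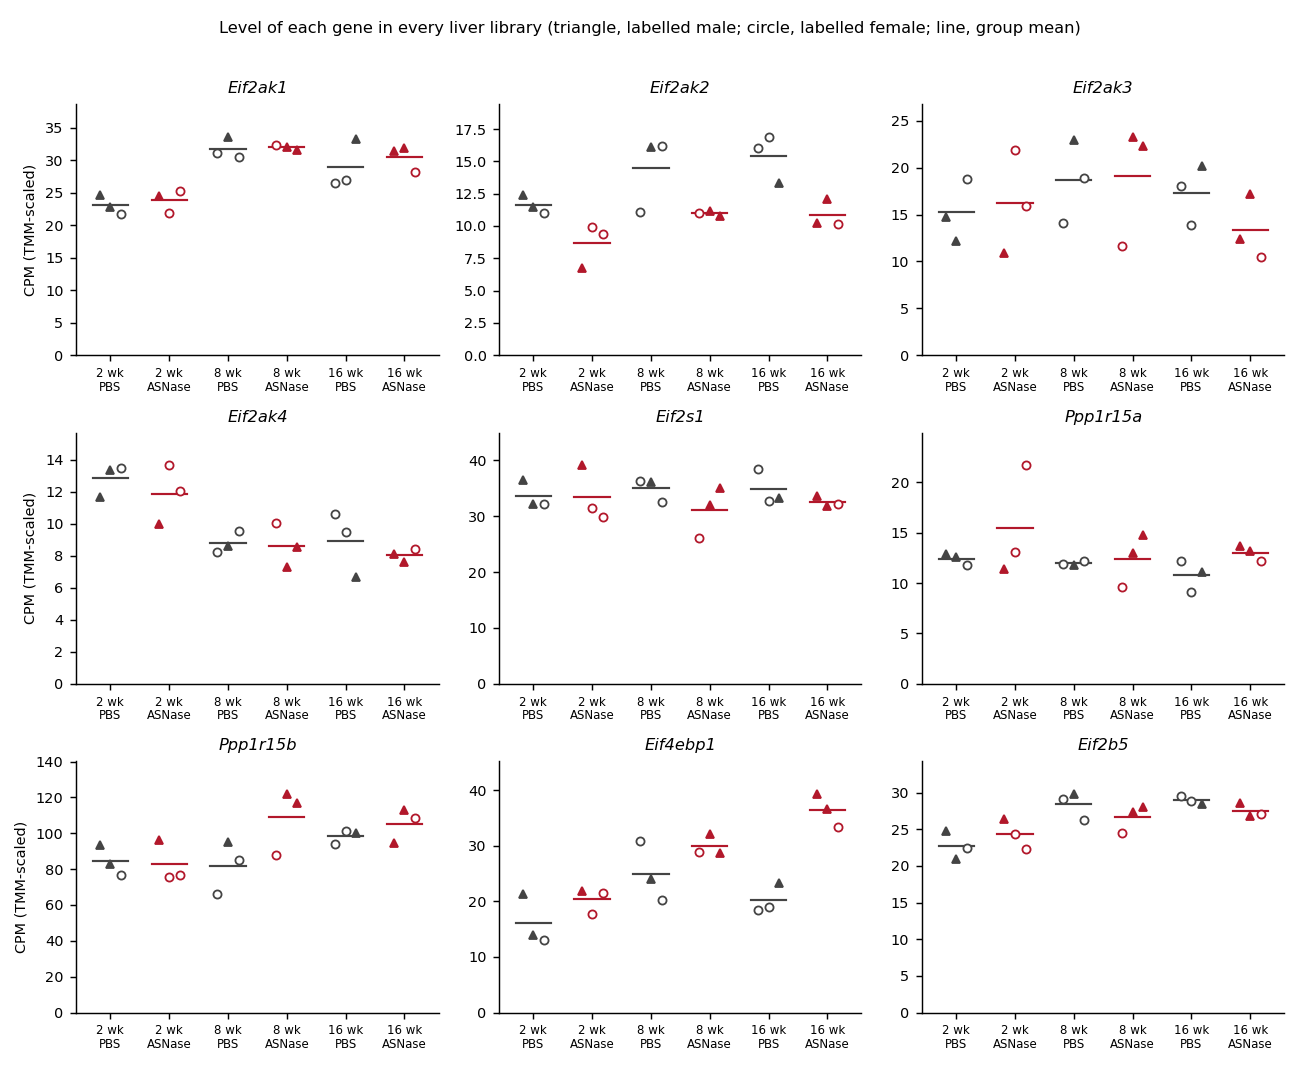
CPM of each of the 9 genes in the 18 libraries, by age and treatment; each symbol is a library (triangles labelled male, circles labelled female) and lines are group means of 3. Group means of Eif2ak2 lie lower after asparaginase (8.68, 11.0 and 10.8 CPM) than after PBS (11.6, 14.5 and 15.4 CPM), and those of Eif4ebp1 lie higher. Treatment groups overlap at 8 weeks for Eif2ak2, at 2 and 8 weeks for Eif4ebp1, and at every age in the other panels.

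The targets set the scale. Asns, asparagine synthetase, was at 3.47, 3.93 and 3.69 CPM in the 2-week PBS libraries and at 30.7, 26.4 and 19.4 CPM after asparaginase, while at 16 weeks PBS gave 0.749, 0.555 and 1.51 CPM and treatment 28.0, 27.8 and 13.1 CPM. The treatment groups did not overlap at any age, and the log2 differences were 2.85 (SE 0.223), 1.80 (SE 0.238) and 4.27 (SE 0.261), with adjusted p-values of 0.000203, 0.0392 and 1.08e-05. Trib3, a pseudokinase and feedback inhibitor of the response, rose by 2.96 (SE 0.406) at 2 weeks, and its differences of 1.77 and 2.01 at 8 and 16 weeks did not pass (adjusted p = 0.0627 and 0.0720). Atf5, a transcription factor translated when eIF2 is phosphorylated, rose by 2.08 and 2.03 at 2 and 16 weeks and had a difference of 0.16 at 8 weeks. Averaged over ages, 23 of the 44 targets rose and 0 fell. Those with the smallest p included the serine synthesis genes Psat1 (2.97) and Phgdh (2.27), the mitochondrial enzymes Pck2 (1.08), Mthfd2 (2.01) and Pycr1 (1.38), and the stress regulator Nupr1 (2.33). The transcript of Atf4, the transcription factor that drives these genes and whose control is mainly translational, differed by 0.21, 0.18 and 0.00 at the 3 ages (adjusted p = 0.658, 0.585 and 1.00), and Ddit3 by 1.12, 0.19 and 0.54, none of them called. The target counts depend on the libraries: without the 3 mixed libraries they were 0, 0 and 8 at the 3 ages and 13 for the average, and without the squamous pair 6, 0, 11 and 18.

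Promoter windows (RefSeq, GRCm38.p6, from 250 bases before to 50 after each annotated start) were held for 7 of the 9 members and 38 of the 44 targets; Eif4ebp1 and Ppp1r15b had none and were not searched. The composite element through which ATF4 acts was searched as TGATGNAA on both strands. It was found in 13 of the 38 targets with a window (34.2%) and in 0 of the 7 members searched, beside 4.51% of the 27025 genes in the table. The interferon-type repeat GAAANNGAAA, searched likewise, was found in 3 of 7 members (Eif2ak2, Eif2s1 and Ppp1r15a), in 14 of 23 interferon response genes (60.9%) and in 3.99% of all genes. The palindrome TGACGTCA was found in 1 of 7 members, Ppp1r15a, and in 2.03% of all genes. These are matches of letters, and no binding was measured. The 4 stretches below are shown because they set the target promoters beside those of Ppp1r15a and Eif2ak2; capitals mark the match. Asns is given for chr6:7693210-7693459 and Ppp1r15a for chr7:45526269-45526518, each the 250 bases before the start on the minus strand, and Trib3 for chr2:152344028-152344057 and Eif2ak2 for chr17:78882535-78882564, each 30 bases around a match past the start, also on the minus strand. The Trib3 match is on the strand opposite the gene, so its capitals read as the reverse complement of the motif. The printed Ppp1r15a stretch also holds its GAAANNGAAA match, left in lower case, which does not overlap the capitals.
Asns: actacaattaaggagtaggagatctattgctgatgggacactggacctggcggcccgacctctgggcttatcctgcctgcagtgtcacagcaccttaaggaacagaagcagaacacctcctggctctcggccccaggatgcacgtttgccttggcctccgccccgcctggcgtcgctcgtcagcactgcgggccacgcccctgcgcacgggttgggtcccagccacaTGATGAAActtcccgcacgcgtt
Trib3: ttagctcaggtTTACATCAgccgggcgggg
Ppp1r15a: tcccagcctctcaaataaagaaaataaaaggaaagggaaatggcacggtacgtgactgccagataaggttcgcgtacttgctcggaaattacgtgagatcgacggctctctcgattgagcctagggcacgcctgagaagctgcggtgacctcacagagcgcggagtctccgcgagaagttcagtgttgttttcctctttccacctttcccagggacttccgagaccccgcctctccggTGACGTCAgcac
Eif2ak2: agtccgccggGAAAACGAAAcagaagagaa

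Eif2ak2 (GENCODE M21 on GRCm38, chr17:78852564-78882573, minus strand, 16 exons) encodes PKR, the kinase activated by double-stranded RNA and itself an interferon-induced gene. At 2 weeks the PBS libraries held 12.4, 11.5 and 11.0 CPM and the asparaginase libraries 6.74, 9.90 and 9.40 CPM. At 8 weeks they held 11.1, 16.1 and 16.2 CPM and 11.0, 11.2 and 10.8 CPM. At 16 weeks they held 16.0, 16.9 and 13.3 CPM and 10.3, 12.1 and 10.1 CPM. All asparaginase libraries lay below all PBS libraries at 2 and 16 weeks; at 8 weeks PBS library 1 overlapped the treated range. Groups of 3 failed to overlap in 16.7%, 15.9% and 19.7% of all genes at the 3 ages, and did so in 1, 0 and 2 members. The log2 differences were -0.50 (SE 0.177), -0.43 (SE 0.167) and -0.47 (SE 0.175), none past the threshold alone (adjusted p = 0.245, 0.202 and 0.333). Averaged, Eif2ak2 fell by 0.47 (SE 0.0999, 0.722-fold with a 95% interval of 0.622 to 0.839, adjusted p = 0.0204). Differences of the effect between ages were within 0.07 on the log2 scale (adjusted p of the joint test 0.989).

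The decrease of Eif2ak2 kept its direction in 27 of 27 alternative fits, from -0.58 to -0.26, and its call in 19, with adjusted p from 0.000667 to 0.155. It did not pass on library totals (-0.26, adjusted p = 0.0910), on totals without the major urinary protein genes (-0.41, 0.0508), without the 3 mixed libraries (-0.43, 0.153), without the 8-week squamous pair (-0.52, 0.114), or without asparaginase library 1 of 2 weeks (-0.36, 0.155), PBS library 2 of 8 weeks (-0.43, 0.0640), asparaginase library 1 of 8 weeks (-0.51, 0.0641) or asparaginase library 3 of 16 weeks (-0.40, 0.109).

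Interferon response genes fell in the same average as Eif2ak2. Of 32, 13 fell and 0 rose in the average over ages, with a median log2 difference of -0.54 against 0.00 for all genes; by age 0, 5 and 0 fell. Among the called were the immunity-related GTPases Irgm1 (-0.74), Igtp (-0.90) and Ifi47 (-0.69) and the ubiquitin-like modifier Isg15 (-0.83). The count was 2 without the mixed libraries and 1 without the squamous pair. The summed level of the 32 genes was 299 to 416 CPM after asparaginase and 443 to 537 CPM after PBS at 2 weeks, 405 to 534 and 581 to 802 CPM at 8 weeks, and 400 to 530 and 472 to 768 CPM at 16 weeks, so the groups overlapped at 16 weeks only. These sums are not adjusted for sex: 20 of the 32 genes were called lower in adult males and 0 higher (median -0.75), and the adult asparaginase groups hold 2 males each against 1 in each PBS group. Fewer of the 32 genes were called lower in males without the mixed libraries and without the squamous pair. Eif2ak2 itself differed by 0.02 between adult sexes (adjusted p = 0.945). Lymphocyte markers summed to 6.39 to 7.68 CPM after asparaginase and 7.64 to 14.2 CPM after PBS at 2 weeks, to 4.27 to 10.6 and 6.46 to 27.7 CPM at 8 weeks, and to 3.31 to 39.9 and 12.5 to 112 CPM at 16 weeks; the ranges overlapped at each age, 0 of the 9 markers were at 0 throughout a group, and 7 of the 8 tested were called lower in adult males. Kupffer cell markers (12 of 12 matched, 0 at 0 throughout a group) summed to 244 to 303 CPM after asparaginase and 323 to 603 CPM after PBS at 8 weeks, with no overlap. Their median log2 difference was -0.62 at that age, with 10 of 12 at an unadjusted p under 0.05 and 0 called, and 0.01 and 0.10 at 2 and 16 weeks, where the sums overlapped. In bulk liver, fewer cells of a type and less RNA per cell cannot be told apart, and the part of such cells in the Eif2ak2 values was not tested. The genes whose log2 CPM was most like that of Eif2ak2 over the 18 libraries, among 14215 genes compared, were Slc35b4 (Pearson r = 0.898), Iigp1 (0.893) and Srebf1 (0.888), a description across libraries that share ages and treatments.

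**Figure D2:**
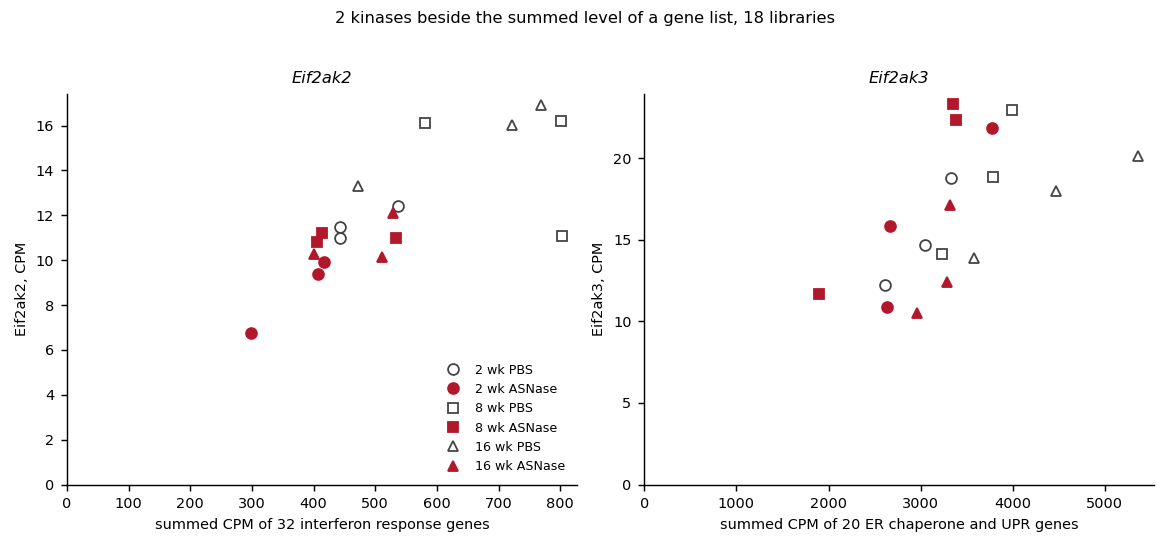
Left, CPM of Eif2ak2 against the summed CPM of 32 interferon response genes; right, CPM of Eif2ak3 against the summed CPM of 20 ER chaperone and unfolded protein response genes; each point is 1 of 18 libraries, filled for asparaginase. Eif2ak2 is lowest, 6.74 CPM, where the interferon sum is lowest, 299 CPM, but stands at 11.1 CPM where that sum is highest, 802 CPM. Eif2ak3 ranges from 10.5 to 23.3 CPM across the ER sums.

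Eif2ak3 (chr6:70844515-70905245, plus strand, 19 exons) encodes PERK, a kinase of the ER membrane. The PBS and asparaginase libraries held 14.7, 12.2 and 18.8 CPM against 10.9, 21.8 and 15.9 CPM at 2 weeks. At 8 weeks they held 14.1, 23.0 and 18.9 CPM against 11.7, 23.3 and 22.3 CPM, and at 16 weeks 18.0, 13.9 and 20.1 CPM against 12.4, 17.2 and 10.5 CPM. The groups overlapped at every age. Adjusted for sex, the log2 differences were -0.15, -0.25 and -0.52, with an average of -0.31 (SE 0.111, 95% interval -0.55 to -0.07, adjusted p = 0.125). Without the sex term the average was -0.08. Its exons overlap an opposite-strand predicted gene over 8.05% of their length.

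The within-group spread of Eif2ak3 was the widest of the 9, an SD of 0.407 on the log2 scale against 0.203 for the median gene, and in adults the labelled sexes were apart. Every labelled male lay above every labelled female in 4 of 4 adult groups: 23.0 CPM against 14.1 and 18.9 CPM after PBS at 8 weeks, 22.3 and 23.3 CPM against 11.7 CPM after asparaginase at 8 weeks, 20.1 CPM against 13.9 and 18.0 CPM after PBS at 16 weeks, and 12.4 and 17.2 CPM against 10.5 CPM after asparaginase at 16 weeks. At 2 weeks, where 3 labels of sex are uncertain, the order was the opposite. Labelled males held 14.7 and 12.2 CPM against 18.8 CPM after PBS, and 10.9 CPM against 21.8 and 15.9 CPM after asparaginase. In a comparison added after the values were seen, Eif2ak3 was higher in adult males by 0.57 (SE 0.136, 1.48-fold, adjusted p = 0.0194), as 1 of 9 members called against 12.9% of all genes. The call was lost without the 3 mixed libraries (0.57, adjusted p = 0.0831), without the squamous pair (0.45, 0.172), without PBS library 3 of 16 weeks (0.61, 0.0867), asparaginase library 1 of 8 weeks (0.45, 0.147) or asparaginase library 3 of 16 weeks (0.53, 0.0874), and on library totals (0.05, 0.757), where the median gene stood at -0.53 and the share of called genes higher in males went from 37.8% to 1.25%. Of 20 ER chaperone and unfolded protein response genes, 5 were called higher in males and 0 lower, with a median of 0.41. That count of higher genes was smaller without the mixed libraries and without the squamous pair. Eif2ak4, GCN2, had the opposite sign, -0.27 (SE 0.0976, adjusted p = 0.0817), with every male below every female in 3 of 4 groups. What share of all genes kept the sexes apart in this way was not counted, for Eif2ak3 or Eif2ak4.

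ER genes fell after asparaginase, while Eif2ak3 was not called. In the average over ages 12 of 20 fell and 0 rose, with a median of -0.53, and the falls included the chaperones Hsp90b1 (-0.54) and Calr (-0.59), the disulfide isomerases Pdia4 (-0.54) and Pdia6 (-0.54), Dnajb11 (-0.53), Sdf2l1 (-1.13) and Creld2 (-1.19). At 2, 8 and 16 weeks alone 0, 0 and 1 fell, and the average count was 0 without the mixed libraries and 0 without the squamous pair. The genes most like Eif2ak3 over the libraries were Ficd (r = 0.959), which modifies the chaperone BiP, Dnajb9 (0.904), a BiP co-chaperone, and Alg2 (0.890), a mannosyltransferase of ER glycosylation.

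Eif2ak4 (chr2:118388618-118475234, plus strand, 41 exons) encodes GCN2, the sensor of scarce amino acids. At 2 weeks the PBS libraries held 11.7, 13.4 and 13.5 CPM and the asparaginase libraries 9.97, 13.7 and 12.0 CPM. At 8 weeks the values were 8.26, 8.64 and 9.57 CPM against 10.1, 7.29 and 8.53 CPM, and at 16 weeks 10.6, 9.52 and 6.69 CPM against 8.12, 7.61 and 8.45 CPM. The treatment groups overlapped at all ages, with log2 differences of -0.20, 0.03 and -0.01. The average was -0.06 (SE 0.0792, adjusted p = 0.693), with a 95% interval of -0.23 to 0.11. Its transcript was lower in older livers. In PBS mice it fell by 0.61 (SE 0.131, adjusted p = 0.00406) from 2 to 8 weeks and by 0.64 (SE 0.133, adjusted p = 0.00366) from 2 to 16 weeks, and in asparaginase mice by 0.39 (adjusted p = 0.0423) and 0.45 (adjusted p = 0.0257). Its direction held under every scaling, relative to the median gene or not.

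Eif2ak1 (chr5:143817788-143904251, plus strand, 15 exons) encodes HRI, the heme-regulated kinase best known in red cell precursors. It was at 24.7, 22.8 and 21.8 CPM after PBS and 24.5, 21.9 and 25.3 CPM after asparaginase at 2 weeks, at 31.1, 33.7 and 30.6 CPM and 32.3, 32.02 and 31.7 CPM at 8 weeks, and at 26.6, 27.0 and 33.2 CPM and 31.4, 31.9 and 28.2 CPM at 16 weeks. Of the kinases it had the narrowest estimate of an asparaginase effect: the average was 0.03 (SE 0.0497), with a 95% interval of -0.08 to 0.13 on the log2 scale. Older PBS livers held more of it, by 0.48 (SE 0.0841, adjusted p = 0.00118) at 8 weeks and 0.37 (SE 0.0841, adjusted p = 0.00601) at 16 weeks over 2 weeks, the opposite of Eif2ak4. Erythroid markers, 15 of 16 matched, had a median log2 difference of -1.02 and -1.13 between those ages (8 tested), with sums of 571 to 1593 CPM in the PBS libraries of 2 weeks and 394 to 734 CPM in the older ones, ranges that overlap; their part in the Eif2ak1 values was not tested. The genes most like Eif2ak1 were Chpt1 (r = 0.953), Aox1 (0.951) and Lamp1 (0.9499), and those most like Eif2ak4 were Ska2 (0.9598), Adamts9 (0.952) and Col4a5 (0.945). Exons of Eif2ak1 overlap the opposite-strand genes Aimp2 over 8.59% and Ankrd61 over 3.03% of their length; whether counting used strand is not given in the sources used here, so reads there cannot be told apart.

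Levels per kb use the length of a gene's exons merged over all its annotated transcripts, and the exon numbers given with each gene count merged exons. Orders between genes rest on these lengths. Per kb, Eif2ak1 was the most abundant kinase transcript in all groups, with group means of 4.08 to 5.64 CPM per kb. Eif2ak4 was the lowest, with 1.08 to 1.72 CPM per kb. Eif2ak4 was last of the 9 genes in 17 of 18 libraries. In PBS mice Eif2ak1 made up 38.5% ± 2.87 (SD, n = 3) of the summed kinase level at 2 weeks, 44.4% ± 4.38 at 8 weeks and 41.8% ± 4.00 at 16 weeks, while Eif2ak4 made up 16.3% ± 1.63, 9.37% ± 0.9695 and 9.88% ± 2.47. The PKR share was 21.5% ± 1.56, 22.1% ± 2.49 and 24.8% ± 4.01 in PBS mice and 16.5% ± 1.33, 17.8% ± 1.32 and 19.6% ± 0.741 after asparaginase, with the 3 treated libraries below the 3 PBS libraries at each age. The nearest PKR shares were 19.3% after asparaginase and 19.5% after PBS at 8 weeks, and 20.1% and 20.5% at 16 weeks. These shares were not tested.

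**Figure D3:**
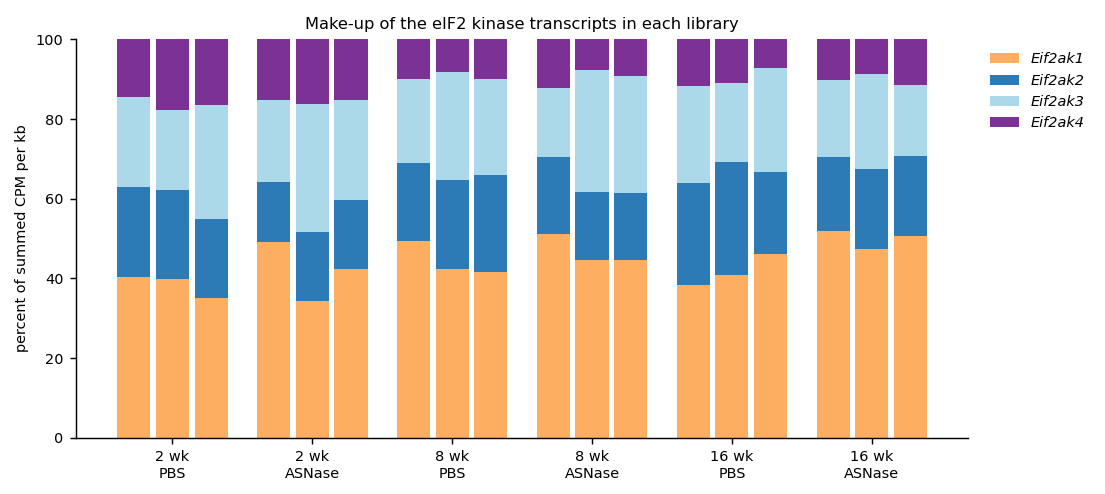
Share of each kinase in the summed CPM per kb of the 4 eIF2 kinases, 1 bar per library in replicate order within each group. Eif2ak4 takes 14.5% to 17.8% at 2 weeks and 7.06% to 12.1% in older livers, and Eif2ak1 takes 34.3% to 51.8% over all 18.

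Eif2s1 (chr12:78861819-78887010, plus strand, 8 exons), the alpha subunit of eIF2 and the substrate of all 4 kinases, was among the steadiest members, with 26.1 to 39.1 CPM over the 18 libraries. Its log2 differences after asparaginase were 0.06, -0.25 and -0.08, and the average was -0.09 (SE 0.0640, adjusted p = 0.424). It was called in no age comparison. Eif2b5 (chr16:20498817-20509323, plus strand, 16 exons), the catalytic subunit of the exchange factor that phosphorylated eIF2 inhibits, had the smallest within-group SD, 0.0935 on the log2 scale. It was at 24.8, 20.9 and 22.5 CPM in 2-week PBS livers, 29.2, 29.8 and 26.3 CPM at 8 weeks and 29.5, 28.9 and 28.5 CPM at 16 weeks. All older PBS libraries lay above all 2-week ones, and the log2 differences were 0.36 (SE 0.0903, adjusted p = 0.00957) and 0.37 (SE 0.0904, adjusted p = 0.00990). What share of all genes kept these ages apart in this way was not counted. After asparaginase Eif2b5 differed from PBS by 0.13, -0.14 and -0.07, with an average of -0.03 (95% interval -0.14 to 0.09). Of the 19 genes of eIF2, eIF2B and their partners, 0 were called at any age and 1, Bzw2, an initiation regulator, rose in the average (0.44, SE 0.115). The levels of Eif2s1 per kb were 0.558 to 0.807 of those of Eif2b5 in the 18 libraries.

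The phosphatase subunits differed in level and in spread. Ppp1r15b (CReP, chr1:133131143-133139783, plus strand, 2 exons) was the most abundant member per kb in 16 of 18 libraries. It stood at 93.5, 82.8 and 76.9 CPM after PBS and 96.4, 75.8 and 76.9 CPM after asparaginase at 2 weeks, at 65.9, 95.2 and 85.0 CPM and 87.9, 122 and 117 CPM at 8 weeks, and at 94.0, 101 and 100.05 CPM and 94.8, 113 and 108 CPM at 16 weeks. The groups overlapped at each age, and the average difference of 0.15 (SE 0.0670) did not pass (adjusted p = 0.224). Its exons overlap an opposite-strand predicted gene over 11.4% of their length.

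Ppp1r15a (GADD34, chr7:45522916-45526268, minus strand, 2 exons) is the inducible subunit and a known target of the response. It was at 12.9, 12.6 and 11.7 CPM after PBS and 11.4, 13.1 and 21.7 CPM after asparaginase at 2 weeks, the last value in a mixed library. At 8 weeks it was at 11.9, 11.8 and 12.2 CPM against 9.58, 13.0 and 14.7 CPM, and at 16 weeks at 12.2, 9.08 and 11.1 CPM against 13.7, 13.2 and 12.2 CPM. The log2 differences were 0.21 (SE 0.215), -0.05 (SE 0.214) and 0.23 (SE 0.210). The average was 0.13 (SE 0.123, adjusted p = 0.567), and its 95% interval of -0.14 to 0.40 lies below the average difference of Asns, 2.97, and of Trib3, 2.25. Over all 44 targets the median of this average was lower than for those, 0.53, with 37 above 0 and 23 called. Per kb, CReP exceeded GADD34 by 1.86-fold to 5.85-fold over the 18 libraries. Neither subunit was called in any age comparison of the main fit, and of the 5 phosphatase genes 0 were called after asparaginase. In asparaginase mice Ppp1r15b stood 0.28 and 0.31 higher at 8 and 16 weeks than at 2 weeks (adjusted p = 0.083 and 0.0585). With DESeq2 it passed in both (adjusted p = 0.0465 and 0.034).

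**Figure D4:**
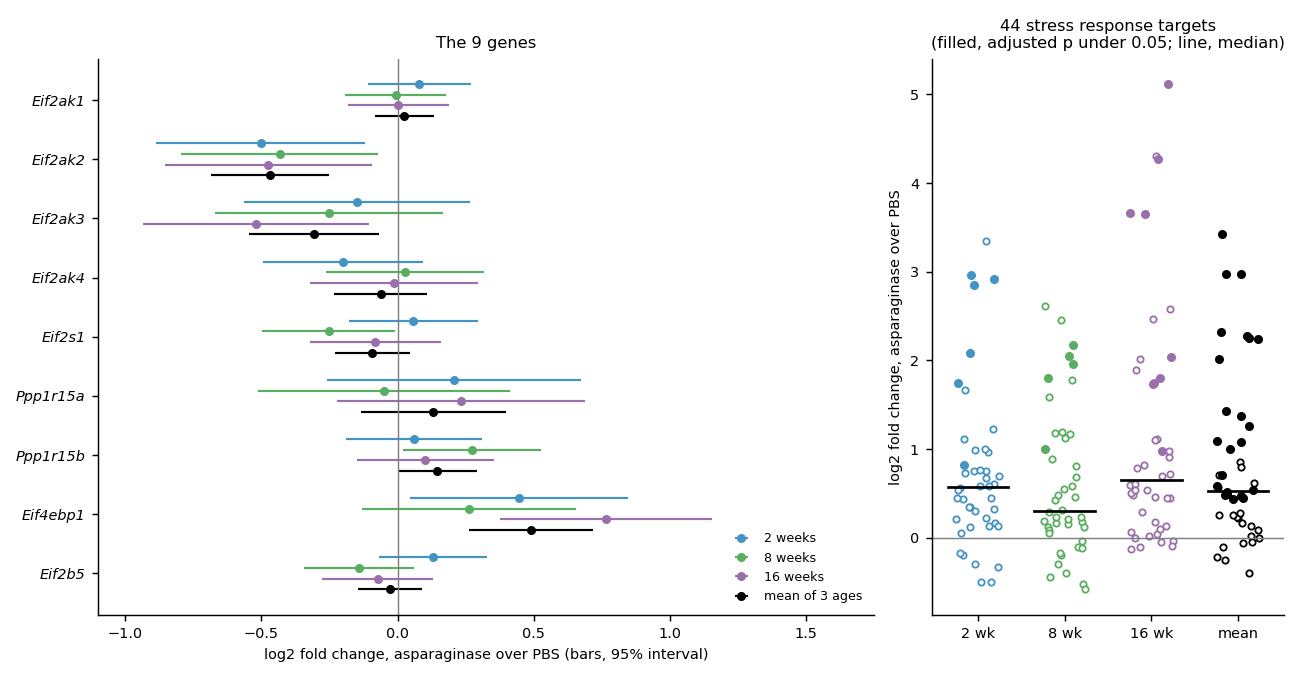
Left, log2 fold change of asparaginase over PBS for the 9 genes at each age and averaged, with 95% intervals; right, the same for 44 stress response targets, filled where called, with the median as a line. Of the members Eif2ak2 (-0.47) and Eif4ebp1 (0.49) are called in the average, while target medians lie at 0.57, 0.30, 0.65 and 0.53.

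Eif4ebp1 (chr8:27260329-27276674, plus strand, 6 exons) encodes 4E-BP1, which binds the cap-binding protein eIF4E and represses initiation until mTORC1 phosphorylates it; its gene is also a known target of ATF4. At 2 weeks the PBS libraries held 21.4, 13.9 and 13.1 CPM and the asparaginase libraries 21.9, 17.7 and 21.5 CPM. At 8 weeks they held 30.8, 24.0 and 20.2 CPM and 28.9, 32.2 and 28.7 CPM. At 16 weeks they held 18.4, 19.0 and 23.4 CPM and 39.3, 36.5 and 33.4 CPM. The groups overlapped at 2 and 8 weeks and were apart at 16 weeks, as were the sums of skeletal muscle markers given above, whose part in this was not tested. The log2 differences were 0.45 (SE 0.185, adjusted p = 0.329), 0.26 (SE 0.182, adjusted p = 0.463) and 0.77 (SE 0.1803, adjusted p = 0.136). Averaged, Eif4ebp1 rose by 0.49 (SE 0.105, 1.41-fold with a 95% interval of 1.201 to 1.65, adjusted p = 0.0209). The effects were not shown to differ between ages (adjusted p of the joint test 0.677).

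The rise of Eif4ebp1 had the same sign in 27 of 27 alternative fits (0.45 to 0.71) and passed in 21, with adjusted p from 0.000497 to 0.146. It did not pass without the squamous pair (0.49, adjusted p = 0.146), without asparaginase library 1 of 2 weeks (0.55, 0.0667), PBS library 2 of 8 weeks (0.46, 0.0594), PBS library 3 of 16 weeks (0.51, 0.0585), asparaginase library 1 of 8 weeks (0.52, 0.0631) or asparaginase library 3 of 16 weeks (0.47, 0.100). At 16 weeks alone it passed in a fit of that age only (adjusted p = 0.0229), with DESeq2 (0.00894), on library totals (0.0104) and without PBS library 1 of 2 weeks (0.0404).

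Of 22 genes of the cap-binding and mTORC1 arm, 4 rose in the average and 0 fell: Eif4b (0.38, SE 0.0552), a helper of the eIF4A helicase, Mknk1 (0.61, SE 0.104), a kinase of eIF4E, Eef2 (0.35, SE 0.0651), the elongation factor, and Eif4ebp1. The median of the list was 0.07. At 2 weeks Eif4b (0.54), Mknk1 (1.11) and Eef2 (0.65) rose, and at 8 and 16 weeks 0 were called. Eif4ebp1 levels were most like those of Supt4a (r = 0.923), Ltbr (0.918) and Slc35d1 (0.917). Of the 16 eIF2 kinases and their regulators, 3 fell in the average and 0 rose: Eif2ak2, Hspa5 (-0.74), the chaperone BiP that holds PERK inactive, and Hsp90aa1 (-0.70), a chaperone of the kinases.

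Direct tests of whether the asparaginase effect differed between ages called 0 of 9 members for 8 against 2 weeks, 16 against 2 weeks, 16 against 8 weeks and the joint test, beside 0%, 0%, 0.0123% and 0% of all genes with edgeR. At an unadjusted p under 0.05 these tests held 1509, 1005, 1517 and 1529 genes, and 0 members in each, and DESeq2 called 83, 107, 147 and 155 genes and 0 members. These comparisons share libraries with those above.

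More members were called between ages than after asparaginase, as was so for genes in general. In PBS mice 4 of 9 members were called between 2 and 8 weeks, where 31.7% of all genes were, and 3 of 9 between 2 and 16 weeks, where 27.8% were. Eif2ak1 and Eif2b5 rose and Eif2ak4 fell at both older ages, and Eif4ebp1 rose by 0.69 (SE 0.178, adjusted p = 0.0112) at 8 weeks and stood 0.43 higher at 16 weeks (adjusted p = 0.0918). Between 8 and 16 weeks 0 of 9 were called by edgeR (0.413% of all genes); at an unadjusted p under 0.05 there were 0 members and 2493 genes. In asparaginase mice 3 of 9 were called for 8 over 2 weeks (29% of all genes) and 3 of 9 for 16 over 2 weeks (26.6%): Eif2ak1 rose by 0.40 and 0.29, Eif2ak4 fell by 0.39 and 0.45, and Eif4ebp1 rose by 0.51 and 0.75. Between 8 and 16 weeks of asparaginase 0 members were called, with 4.25% of all genes; 1 member, Eif2ak3 (-0.42), and 2834 genes had an unadjusted p under 0.05. With 9 members, 4 or 3 called stand close to the share of all genes.

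The age calls in PBS mice were kept, in the same direction, in 25 to 27 of 28 alternative fits each. On library totals Eif2ak1 at 16 weeks and Eif2b5 at both ages were called in the opposite direction. Without PBS library 3 of 16 weeks, 0 of 9 passed between 2 and 16 weeks (Eif2ak1 0.31, adjusted p = 0.0980; Eif2ak4 -0.44, 0.0904; Eif2b5 0.39, 0.0592). Eif2ak1 also missed there without PBS library 3 of 2 weeks (0.33, 0.0899), and Eif4ebp1 missed at 8 weeks without that library (0.55, 0.129). Without the 3 mixed libraries Eif2ak4 stood at -0.66 and -0.67 (adjusted p = 0.0552 and 0.0559) and Eif2b5 at 0.34 at 8 weeks (0.0588). In asparaginase mice the calls were less stable. Without the 3 mixed libraries Eif2ak4 stood at -0.40 for 8 over 2 weeks and at -0.46 for 16 over 2 weeks, and lost both calls. For 8 over 2 weeks Eif2ak4 passed in 10, Eif4ebp1 in 12 and Eif2ak1 in 24 of 28 fits, and 0 members passed without asparaginase library 1 of 2 weeks, without asparaginase library 1 of 8 weeks or without the squamous pair. For 16 over 2 weeks the same 3 genes were called in the same direction in 21, 25 and 22 fits (Eif2ak1 was called lower on library totals, -0.28), and 0 members passed without asparaginase library 1 of 2 weeks or asparaginase library 3 of 16 weeks.

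**Figure D5:**
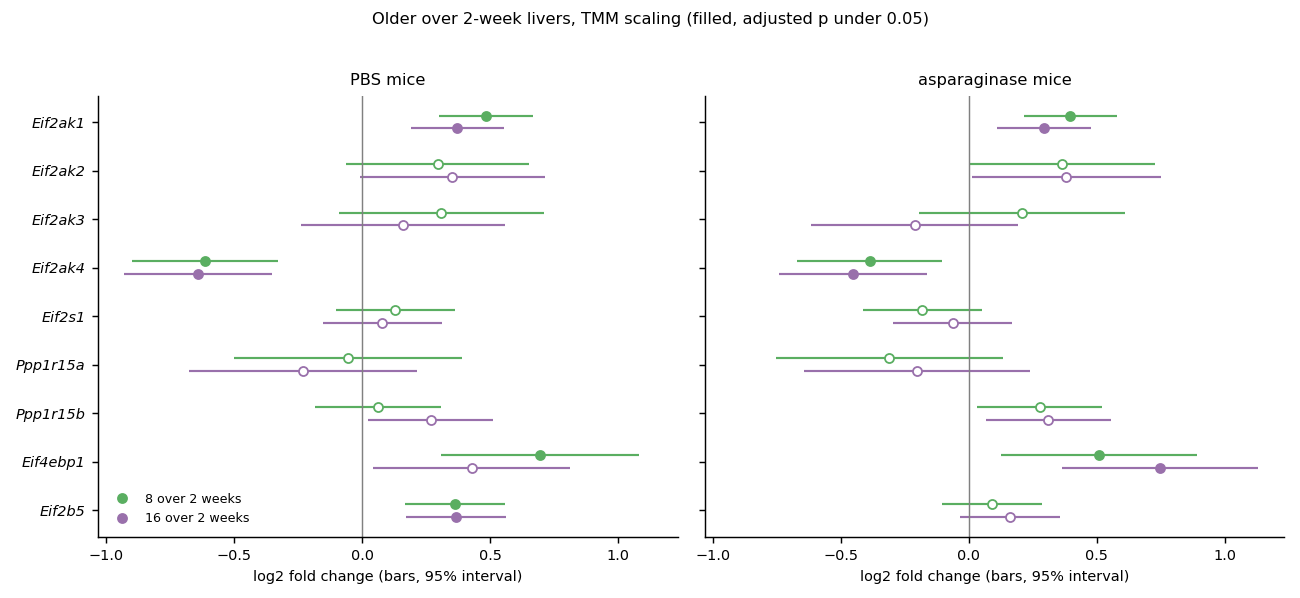
Log2 fold changes of 8 and 16 weeks over 2 weeks for the 9 genes in PBS mice (left) and asparaginase mice (right), with 95% intervals, on TMM scaling; filled points are called. Eif2ak1 lies to the right (0.48 and 0.37 in PBS mice) and Eif2ak4 to the left (-0.61 and -0.64); on library totals Eif2ak1 reads -0.23 and -0.42 in PBS mice.

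On library totals alone, with the median gene at -0.72 and -0.80, the signs in PBS mice turned for Eif2ak1 (-0.23 and -0.42) and Eif2b5 (-0.36 and -0.43), and Eif4ebp1 stood at -0.03 at 8 weeks; relative to the median gene Eif2ak1 was 0.49 and 0.38 higher, as on TMM. Cell division markers summed to 94.5 to 112 CPM in 2-week PBS livers and 2.24 to 26.7 CPM in older ones, and all 8 fell at both ages, in the direction of Eif2ak4; sinusoidal endothelial markers fell for 4 and 3 of 6 and stellate and fibroblast markers for 5 and 4 of 7. Their part in the Eif2ak4 values was not tested. Of the 19 genes of eIF2 and its partners 6 (31.6%) were called higher at 8 weeks and 3 (15.8%) at 16 weeks, with 0 lower. Of the cap-binding arm 6 (27.3%) and 6 (27.3%) of 22 were called higher, with 0 lower. The 31.7% and 27.8% of all genes are calls in either direction, so they are not the like share for higher calls. What share of all called genes was higher is given above. Of the 44 targets 10 rose and 10 fell at 8 weeks, and 7 rose and 10 fell at 16 weeks. Asns, for one, fell by 0.94 and 1.87.

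Between neighbours in the order of levels per kb, Ppp1r15b was above Eif2b5 in 18 of 18 libraries, Eif2b5 and Eif4ebp1 changed places (9 of 18 each way), Eif4ebp1 was above Eif2s1 in 16, Eif2s1 above Eif2ak1 in 17, Eif2ak1 above Ppp1r15a in 13, Ppp1r15a above Eif2ak3 in 18, Eif2ak3 above Eif2ak2 in 12 and Eif2ak2 above Eif2ak4 in 17. The median levels ran from 16.9 CPM per kb for Ppp1r15b through 10.4 for Eif2b5, 10.3 for Eif4ebp1, 6.58 for Eif2s1, 5.18 for Eif2ak1, 4.15 for Ppp1r15a, 2.74 for Eif2ak3 and 2.18 for Eif2ak2 to 1.28 for Eif2ak4. Of the eIF2 kinases, Eif2ak1 thus lay in the middle of the order, below the substrate Eif2s1 in 17 of 18 libraries. The other kinases, Eif2ak3, Eif2ak2 and Eif2ak4, had the lowest medians.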

How the data were processed

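The authors deposited 1 table of raw counts, holding whole-number counts of 37315 genes in 18 libraries. No 2 columns were identical (0 pairs), and 0 columns belonged to other samples. The submitters' processing notes name TopHat2 2.0.9, TopHat, DESeq2, GRCm38 and mm10 without roles. Counter, annotation and strand setting: not given in the sources used here. Gene identifiers were matched to GENCODE M21 (35449 of 37315) and promoters taken from RefSeq.

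From the counts, filterByExpr (minimum count 10, minimum total 15) kept 16213 genes, which were scaled by TMM and fitted with edgeR 4.0.16 in R 4.3.3. The model had a mean for every group plus a sex effect at every age (0.5 male, -0.5 female), leaving 9 residual degrees of freedom. SE were obtained from the fold change and F statistic, and p-values were adjusted by Benjamini-Hochberg. CPM use TMM-scaled sizes. Library totals ran from 24690871 to 46949361 counts. The labels give mice as replicates but no cages, litters or library batches, so a batch that follows age could not be told apart from age.

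The fits were also run on simulated counts, with changes larger than the member effects of asparaginase given here, so that run does not bear on effects of their size. Members and lists were chosen with earlier results of these data known. Named genes are the members, 5 target readouts (Asns, Trib3, Atf4, Atf5 and Ddit3), called list genes (at most 8 per list and comparison, by smallest p) and the 3 genes most correlated with each member. The comparison of sexes was added after values were seen. Alternatives were other scalings, no filter, no sex term, single ages, left-out libraries, limma 3.58.1 (voom) and DESeq2 1.42.0.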

Additional observations from a re-analysis of the deposited data

How the results depend on the processing

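Of 3753 member values under alternative settings, 3620 stayed on their side of the threshold without a reversed call (193 of them with another sign, called in neither fit), 82 lost a call, 29 gained one and 22 reversed. All 22 reversals came from scaling by library totals only, which moves the median gene as well. They were Eif2ak1 at 8 weeks of asparaginase (0.36); for 8 over 2 weeks in PBS mice Eif2ak1 (-0.23), Eif2s1 (-0.59), Ppp1r15b (-0.64), Eif4ebp1 (-0.031) and Eif2b5 (-0.36); for 16 over 2 weeks in PBS mice Eif2ak1 (-0.42), Eif2ak2 (-0.44), Eif2ak3 (-0.63), Eif2s1 (-0.71), Ppp1r15b (-0.53), Eif4ebp1 (-0.36) and Eif2b5 (-0.43). In asparaginase mice they were Eif2b5 for 8 over 2 weeks (-0.29), and Eif2ak1 (-0.28) and Eif2b5 (-0.41) for 16 over 2 weeks. Between adult sexes they were Eif2ak1 (-0.36), Eif2ak2 (-0.50), Eif2s1 (-0.42), Ppp1r15b (-0.33), Eif4ebp1 (-0.38) and Eif2b5 (-0.44). Under that scaling 3 members were called at 8 and 1 at 16 weeks of asparaginase (0 on TMM), 9 for 16 over 2 weeks in PBS mice and 6 in asparaginase mice (3 and 3 on TMM), and 7 between sexes (1 on TMM). Without the mixed libraries 1 member was called for the average asparaginase effect (against 2), 2 for 8 over 2 weeks in PBS mice (against 4) and 0 between sexes. Without the squamous pair 0 were called for the average, 0 for 8 over 2 weeks in asparaginase mice and 0 between sexes. Totals without the major urinary protein genes gave 1 for the average. At 16 weeks of asparaginase 1 was called with only that age fitted and 1 with DESeq2, and 8 over 2 weeks in asparaginase mice gave 1 with only those ages. Leaving out 1 library at a time gave 0 to 1 members at 16 weeks of asparaginase, 0 to 2 for the average, 3 to 5 and 0 to 4 for 8 and 16 over 2 weeks in PBS mice, 0 to 4 and 0 to 4 in asparaginase mice, and 0 to 2 between sexes. The cause of these losses was not tested, beyond fewer libraries where some were left out. Calls over all genes ranged over the settings from 0 to 432, 0 to 3111 and 5 to 322 for asparaginase at 2, 8 and 16 weeks (70, 59 and 38 as reported), from 87 to 4283 for the average (877), from 2265 to 11939 and 1896 to 12319 for 8 and 16 over 2 weeks in PBS mice (5137 and 4501), from 436 to 7724 and 1482 to 10439 in asparaginase mice (4694 and 4305), from 3 to 550 and 3 to 1107 for 16 over 8 weeks in PBS and asparaginase mice (67 and 689), and from 528 to 12251 between sexes (2090). For the average effect, 70.5% of calls were higher on totals without the major urinary protein genes and 97.2% on totals, against 47.1% on TMM. No paired analysis was possible because the replicate numbers only follow the order of deposition and tie no mice together across groups. Groups of 3 mice limit what differences can be called; the lowest member count in any library was 191.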
